A study of Mus musculus with 9 samples.

Results

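Cytochrome P450 enzymes of families 1 to 4 were followed across 9 mouse livers. The members were all genes whose symbol named family 1, 2, 3 or 4 followed directly by a subfamily letter and a number, pseudogenes left out, among probe sets with exactly 1 gene symbol. This gave 67 genes of the 19938 measured, of which 3 belonged to family 1, 43 to family 2, 6 to family 3 and 15 to family 4. Each was read by 1 probe set. A further 7 probe sets carried the symbols of several such genes at once and were left out, so that Cyp2a4, Cyp2a5, Cyp2c40, Cyp2c69, Cyp3a41a, Cyp3a41b and Cyp4a32 were not analysed here. Genes of the Cyp2c, Cyp2d, Cyp3a and Cyp4a clusters are alike in sequence, and probes of 1 gene may also bind a neighbour's transcript, so values within these clusters may be partly shared.

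The arrays held 3 groups of 3 livers. Wild-type mice were C57BL/6J. Clock mutant mice carried Clock-D19, an allele of the circadian transcription factor gene Clock whose transcript lacks exon 19. It gives a protein that binds its partner but activates poorly. Rescue mice were Clock-D19 mice that received wild-type Clock, as 35 µg of a pLIVE expression plasmid, through hydrodynamic tail vein injection in week 10. In all 3 groups the diet held 45% fat for 5 weeks from 10 weeks of age, the light cycle was 12 h of light and 12 h of dark, and the livers were taken at 1 time of day, Zeitgeber time 10, so that a lower value and a shifted daily rhythm cannot be told apart. The labels describe no control injection for the wild-type and mutant mice, so injection and plasmid cannot be told apart, and they give neither the sex of the mice nor whether RNA was prepared in batches. Nothing in the labels says how many liver cells took up the plasmid.

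Cytochrome P450 enzymes bind heme and insert an oxygen atom into their substrate, with electrons passed on from NADPH by a reductase or by cytochrome b5. Families 1 to 3 are best known in liver for the oxidation of drugs, pollutants and steroids, and family 4 for the hydroxylation of fatty acids and eicosanoids, while many Cyp2c and Cyp2j enzymes convert arachidonic acid to epoxides. Their transcription in hepatocytes is under receptors for foreign compounds and lipids (AHR, CAR, PXR, PPARA), under growth hormone, which makes several of them differ between the sexes, and under clock-controlled factors of the PAR bZIP family.

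The values were log2 signals after RMA, the array normalization used by the depositors, so a difference of 1 is a 2-fold change. The number of arrays limits the precision, and nothing in the labels says which steps each replicate went through separately, so p-values measure the spread between these samples. Clock itself, read by a probe set that does not isolate exon 19 and so checks neither the allele nor the plasmid, was at 9.24 to 9.97 in wild type, 9.89 to 10.88 in the mutant and 9.41 to 10.33 in rescue livers. All 10 measured hepatocyte markers lay above the 95th percentile of the 1027 olfactory receptor genes, which served as a reference for dim probe sets (5.84 in wild type, 5.91 in the mutant and 5.91 in rescue). None of 6 neutrophil markers did. The summed level of 14 Kupffer cell and macrophage markers, on the log2 scale, was 12.08 to 12.55 in wild type, 10.88 to 11.03 in the mutant and 11.24 to 11.63 in rescue livers, and 10 of these genes were lower in the mutant than in wild type at adjusted p under 0.05. For 12 endothelial markers the sum was 11.48 to 11.65, 11.07 to 11.13 and 11.25 to 11.54, with 5 lower in the mutant. For 12 stellate cell and fibroblast markers it was 11.81 to 11.93, 11.46 to 11.54 and 11.73 to 11.85, with 4 lower and 1 higher in the mutant. In rescue against mutant livers, 3 of these markers, 2 endothelial markers and 1 Kupffer cell and macrophage marker were called higher and none lower. In rescue against wild-type livers, 6 Kupffer cell and macrophage markers were called lower. No endothelial, stellate cell or fibroblast marker was called in that comparison. Over all genes, 9.02% were called lower and 6.37% higher in the mutant than in wild type. In rescue livers, 2.61% were called higher than in the mutant and 1.35% lower than in wild type. The part of these marker shifts in the P450 results was not tested. In bulk liver, fewer cells of a type and less RNA per cell cannot be told apart.

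Of the 67 P450 genes, 40 lay above the olfactory receptor range in all 3 groups and 24 in no group. The other 3 were above it in some groups, namely Cyp3a44 and Cyp2b9 in wild-type and rescue livers and Cyp2c55 in the mutant. The wild-type mean of Cyp2b9 exceeded the limit only narrowly (5.842 against 5.838). In wild-type livers 22 of the 67 exceeded the 95th percentile of all measured genes and 12 exceeded the 99th. Signals of different probe sets depend on their probes, so their order is an order of signals and not of transcript numbers. The highest wild-type means belonged to Cyp2e1, which oxidises ethanol and small solvents (12.64 ± 0.10, SD, n = 3), and to Cyp2c23, an arachidonic acid epoxygenase (12.29 ± 0.09). Next came Cyp2f2, which marks periportal hepatocytes (12.21 ± 0.11), and Cyp2j5, an epoxygenase of liver and kidney (11.96 ± 0.02). The fatty acid hydroxylases Cyp4a12b, Cyp4a14 and Cyp4a10 stood at 11.87 ± 0.03, 11.86 ± 0.19 and 11.50 ± 0.13. Cyp3a25, Cyp1a2 and Cyp2c29 completed the first 10 with 11.78 ± 0.27, 11.61 ± 0.17 and 11.49 ± 0.07. Of the first 10, Cyp2c23 alone was called in a comparison. Over all genes, 15.4% were called in mutant against wild type, 3.81% in rescue against mutant and 2.28% in rescue against wild type. Whether the first 10 differed from these shares was not tested. Cyp3a16 had the lowest mean, at 3.18.

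**Figure D1:**
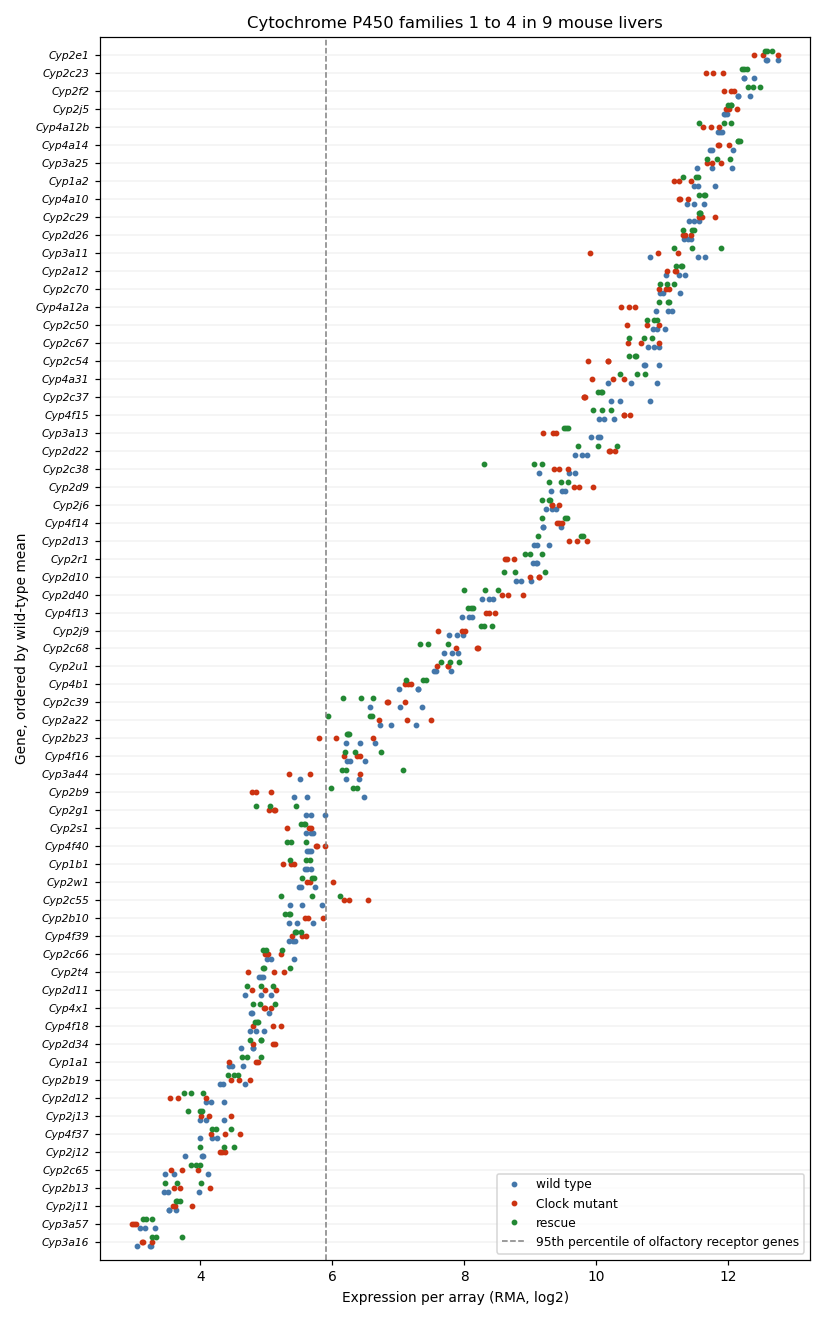
RMA log2 signal (horizontal axis) of the 67 P450 genes (vertical axis, ordered by wild-type mean), with 1 point per array in wild-type, Clock mutant and rescue livers; the dashed line marks the highest 95th percentile of olfactory receptor genes among the groups, 5.91. The points run from about 3 to above 12, with 40 genes above the olfactory range in all groups, and within most genes the 3 groups lie close together.

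The first comparison asked which P450 genes differed between Clock mutant and wild-type livers. At adjusted p under 0.05 in limma, 9 members fell and 4 rose, 13 of 67 or 19.4%, against 15.4% of all genes (9.02% lower and 6.37% higher). The members' share was thus near the background. Their median difference was -0.0029 on the log2 scale, beside 0.073 for all genes, and 34 members were lower and 33 higher. The falls came to 1.92-fold at most, in Cyp2b9, and the rises to 1.68-fold at most. Cyp2b9 is dim in the mutant and barely above the olfactory receptor range in wild type. With each array centred on its median, 1 member rose and 10 fell, and over all genes 610 rose and 2272 fell in place of 1270 and 1798. The count of members was 8 without Clock mutant replicate 3 and 8 without wild type replicate 3.

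**Figure D2:**
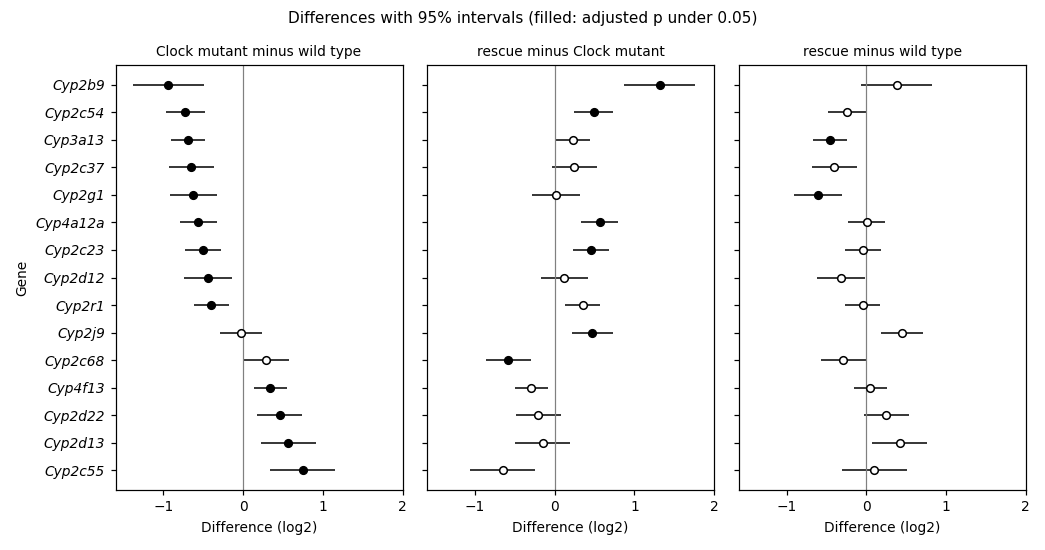
Difference in RMA log2 signal (horizontal axis) with its 95% interval from the limma model for the 15 P450 genes called in at least 1 comparison (vertical axis), in the 3 comparisons; filled points have an adjusted p under 0.05. Of the 13 genes called between mutant and wild type, 9 lie left of 0. These 9 lie right of 0 in rescue against mutant, which uses the same mutant arrays, Cyp2g1 only by 0.018. Among them the points of Cyp2b9, Cyp2c54, Cyp4a12a and Cyp2c23 are filled there.

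The Cyp2c subfamily held 3 of the genes that fell and 1 that rose, out of 13 measured. Cyp2c54, Cyp2c37 and Cyp2c50 stand next to each other in the gene order, and their enzymes oxidise arachidonic and linoleic acid. Cyp2c54 was at 10.95, 10.73 and 10.74 in wild-type replicates 1 to 3 and at 9.87, 10.18 and 10.18 in the mutants, so the groups did not overlap. It fell by 0.73 ± 0.11 (SE; adjusted p = 8.9e-04). Cyp2c37 was at 10.81, 10.22 and 10.36 in wild type, where 1 liver stood above the others, and at 9.83, 9.81 and 9.81 in the mutants. It fell by 0.65 ± 0.13 (adjusted p = 0.0045). Cyp2c50, the third of the row, was at 11.04, 10.87 and 10.93 in wild type and 10.47, 10.95 and 10.77 in the mutants, which overlap, with a difference of -0.21 and a 95% interval of -0.48 to 0.05.

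Promoter sequence for Cyp2c37 and Cyp2c50, from RefSeq on GRCm38.p6, is shown because the genes are close relatives and only Cyp2c37 was called. The stretches are the 150 bases before the start, at chr19:39992274-39992423 and chr19:40089529-40089678, both on the plus strand. Capitals mark ATTGAT, a core of sites for ONECUT factors, found on either strand.
Cyp2c37: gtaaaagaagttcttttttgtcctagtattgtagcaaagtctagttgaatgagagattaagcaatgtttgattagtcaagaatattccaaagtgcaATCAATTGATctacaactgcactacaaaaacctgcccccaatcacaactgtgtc
Cyp2c50: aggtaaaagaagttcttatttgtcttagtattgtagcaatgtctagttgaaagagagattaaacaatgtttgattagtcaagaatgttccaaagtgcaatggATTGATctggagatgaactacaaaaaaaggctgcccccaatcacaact
The promoters were 87.8% identical over 245 aligned bases. Cyp2c37 has the core on both strands, overlapping, at 54 to 49 and 50 to 45 bases before the start, and Cyp2c50 has it 1 time, at 48 to 43 bases. Cyp2c50 was added to the sequences shown after its values were seen. The ratio of Cyp2c37 to Cyp2c50 within arrays overlapped between mutant and wild-type livers. A part of these motifs in the calls was not tested.

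Cyp2c23 is one of the brightest members, and its enzyme makes epoxides of arachidonic acid. Its values were 12.40, 12.23 and 12.24 in wild type and 11.78, 11.66 and 11.93 in the mutants, with no overlap. It fell by 0.50 ± 0.10 (adjusted p = 0.0054). Cyp2c55, whose enzyme hydroxylates arachidonic acid and is known as a target of CAR and PXR, went the other way. It was at 5.54, 5.85 and 5.35 in wild type, within the olfactory receptor range, and at 6.26, 6.18 and 6.54 in the mutants, above it. It rose by 0.75 ± 0.19 (adjusted p = 0.0165). The call was lost without Clock mutant replicate 3 and without wild type replicate 3, with 0.64 in both and adjusted p = 0.0639 and 0.0807 (0.0052 to 0.0807 over all alternatives). The other 9 Cyp2c genes did not pass the test, and the differences of the subfamily ran from -0.73 to 0.75.

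The promoter of Cyp2c55 (chr19:39006869-39007018, plus strand) is shown because its gene rose while the other Cyp2c genes of the cluster fell or were not called. Capitals mark TATAAA, the core promoter box that TBP binds, 29 to 24 bases before the start.
Cyp2c55: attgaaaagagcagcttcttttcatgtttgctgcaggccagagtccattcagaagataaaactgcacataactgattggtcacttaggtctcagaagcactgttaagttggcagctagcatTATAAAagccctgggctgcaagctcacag

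Cyp2b9, a steroid hydroxylase that is known as female-predominant in mouse liver, had the most negative difference of the members. Its values were 5.42, 6.48 and 5.62 in wild type and 4.85, 4.79 and 5.07 in the mutants. Wild-type livers were uneven, with replicate 2 about 1 unit above the others, but each lay above each mutant. It fell by 0.94 ± 0.21 (adjusted p = 0.0079), a 1.92-fold difference that ends within the olfactory receptor range. It also starts at the edge of that range. The wild-type mean, 5.842, lay barely above the limit of 5.838, and wild-type replicates 1 and 3 lay below it. The size is therefore uncertain. Without wild type replicate 2 the fall was 0.62. Its neighbours Cyp2b10, the classical CAR target, and Cyp2b13 did not pass the test (0.18 and 0.17), and the same held for Cyp2b19 and Cyp2b23. The promoter, at chr7:26173259-26173408 on the plus strand, is shown because Cyp2b9 had the largest differences of the members in both of the first comparisons. Capitals mark AGGTCA, the core that nuclear receptors bind, at 138 to 133 bases before the start.
Cyp2b9: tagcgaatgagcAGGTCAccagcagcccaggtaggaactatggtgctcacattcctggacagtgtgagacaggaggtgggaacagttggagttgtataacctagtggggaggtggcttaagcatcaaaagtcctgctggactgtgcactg

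Cyp3a13, an enzyme of the steroid- and drug-oxidising family 3, had the smallest p-value of the members in this comparison. It was at 10.07, 9.92 and 10.03 in wild type and at 9.34, 9.19 and 9.39 in the mutants, well apart. It fell by 0.69 ± 0.10 (adjusted p = 4.9e-04). The main hepatic family 3 gene that responds to PXR, Cyp3a11, was the most variable member. It was at 10.82, 11.66 and 11.55 in wild type and at 9.90, 10.94 and 11.24 in the mutants, which overlap. Its difference was -0.65 with a 95% interval of -1.27 to -0.02 (adjusted p = 0.15). Cyp3a25, next to it in the gene order, differed by -0.0029 with an interval of -0.30 to 0.29. The promoter of Cyp3a13 (chr5:137921620-137921769, minus strand) is shown as that of the most clearly separated member, and these bases held none of the 8 motifs searched.
Cyp3a13: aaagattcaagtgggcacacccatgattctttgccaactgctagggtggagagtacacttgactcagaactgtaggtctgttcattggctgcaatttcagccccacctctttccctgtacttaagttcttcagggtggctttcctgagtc

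In family 4, Cyp4a12a, whose enzyme makes 20-HETE from arachidonic acid and is known as male-predominant, was at 10.91, 11.08 and 11.15 in wild type and 10.37, 10.59 and 10.50 in the mutants. The groups did not overlap, and it fell by 0.56 ± 0.11 (adjusted p = 0.0033). Cyp4a12b, its nearest relative and neighbour, differed by -0.13 with an interval of -0.40 to 0.13. The PPARA-responsive Cyp4a10, Cyp4a14 and Cyp4a31 did not pass the test either, with -0.19, 0.05 and -0.33. Cyp4f13, of the subfamily that inactivates leukotriene B4 and related eicosanoids, was at 8.07, 8.12 and 7.97 in wild type and 8.37, 8.34 and 8.47 in the mutants. It rose by 0.34 ± 0.10 (adjusted p = 0.0295). The call was lost with median centring (0.26) and without Clock mutant replicate 1 (0.35) or 3 (0.30) or wild type replicate 1 (0.35) or 3 (0.30), with adjusted p from 0.0081 to 0.109 over all alternatives. Of 8 Cyp4f genes, 7 did not pass the test, and Cyp4f15, with 0.31, had an adjusted p of 0.070.

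In the Cyp2d subfamily, whose best known human enzyme oxidises many drugs, 2 of 9 genes rose and 1 fell. Cyp2d13 was at 9.29, 9.05 and 9.11 in wild type and 9.58, 9.87 and 9.71 in the mutants, and rose by 0.57 ± 0.16 (adjusted p = 0.027). Cyp2d22 was at 9.86, 9.79 and 9.67 in wild type and 10.20, 10.28 and 10.21 in the mutants, and rose by 0.46 ± 0.13 (adjusted p = 0.0313). Neither gene overlapped between the groups, but neither call was stable. Cyp2d13 was not called with median centring (0.49), with the trend on gene span removed (0.45), without Clock mutant replicate 2 (0.49) or 3 (0.58) or without wild type replicate 2 (0.52) or 3 (0.55), and its adjusted p ran from 0.0041 to 0.0932 over all alternatives. Cyp2d22 was not called with median centring (0.38), with the span trend removed (0.36) or without any 1 of the 6 wild-type and mutant arrays (0.41 to 0.50), and its adjusted p ran from 0.0080 to 0.115. Cyp2d12 lay within the olfactory receptor range in each group, at 4.08, 4.36 and 4.16 in wild type and 3.66, 3.54 and 4.08 in the mutants. Its fall of 0.44 ± 0.14 (adjusted p = 0.0458) was called in 8 of 17 alternatives, and was not called without Clock mutant replicate 1 (-0.39) or 2 (-0.33), without rescue replicate 3 (-0.44) or without wild type replicate 1 (-0.50), 2 (-0.36) or 3 (-0.46), at adjusted p from 0.0103 to 0.164 over all of them. Of the Cyp2d genes not called, Cyp2d9, a male-predominant testosterone hydroxylase, differed by 0.35 (adjusted p = 0.0582) and Cyp2d40 by 0.34 (adjusted p = 0.0962).

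The single gene of the Cyp2r subfamily encodes the liver's vitamin D 25-hydroxylase. Cyp2r1 was at 9.10, 9.08 and 9.05 in wild type and 8.76, 8.62 and 8.66 in the mutants, close within each group and apart between them. It fell by 0.40 ± 0.10 (adjusted p = 0.0184). The call was lost when quantile normalization was repeated (-0.29), without Clock mutant replicate 2 (-0.37) or 3 (-0.39) and without wild type replicate 1 (-0.39), at adjusted p from 0.0060 to 0.0992 over all alternatives. Cyp2g1, known from olfactory mucosa, lay within the olfactory receptor range in each group. It was at 5.89, 5.67 and 5.60 in wild type and 5.11, 5.04 and 5.14 in the mutants, and fell by 0.62 ± 0.14 (adjusted p = 0.0078). Family 1 gave no call among its 3 genes in limma, and 2 of them had an unadjusted p under 0.05. Cyp1a2, which oxidises caffeine and aromatic amines, was at 11.81, 11.55 and 11.49 in wild type and 11.18, 11.43 and 11.26 in the mutants, a difference of -0.32 ± 0.12 (adjusted p = 0.0802). It was called in 5 of 18 alternatives, with median centring (-0.40) and span removal (-0.44) among them. The Cyp2j subfamily also gave no call among 6 genes, with 1 at an unadjusted p under 0.05, Cyp2j12 (0.38, adjusted p = 0.0622), which lay within the olfactory receptor range. Cyp2e1 differed by -0.08 with an interval of -0.32 to 0.16.

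The second comparison asked which P450 genes differed between rescue livers and those of untreated mutants. In limma 5 members rose and 1 fell, 6 of 67 or 8.96%, against 3.81% of all genes (2.61% higher and 1.2% lower). The median difference of the members was 0.018, beside -0.053 for all genes. Both comparisons used the same 3 mutant arrays, so a mutant value that is low by chance would appear as a fall in the first and a rise in the second. The count depended on single arrays, with 3 members without Clock mutant replicate 1, 2 without replicate 2, 3 without replicate 3, 1 without rescue replicate 2 and 2 without rescue replicate 3. Without the dimmest 40% of genes, 42 members were left and 11 were called, or 26.2%, against 9.85% of all genes then tested. The same filter left 13 called in mutant against wild type, or 31.0%, against 28.2% of genes. In rescue against wild type it left 2, or 4.76%, against 5.94%.

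Cyp2b9 was at 6.37, 5.98 and 6.31 in rescue livers, each above each mutant, and rose by 1.32 ± 0.21 (adjusted p = 0.0068), a size that is uncertain because the mutant mean, 4.90, lies within the olfactory receptor range. This call held in all 17 alternatives in which the gene was tested, and the difference ran from 1.24 to 1.44. Cyp4a12a was at 10.95, 11.09 and 11.11, the range of wild type, and rose by 0.56 ± 0.11 (adjusted p = 0.0141). It was not called without Clock mutant replicate 1 (0.50) or without rescue replicate 2 (0.54) or 3 (0.53), at adjusted p from 0.0021 to 0.0625 over all alternatives. Cyp2c54 was at 10.60, 10.59 and 10.50, between mutant and wild type, and rose by 0.49 ± 0.11 (adjusted p = 0.0333). Its call was lost without any 1 of the 3 mutant and 3 rescue arrays (0.38 to 0.54), at adjusted p from 0.0082 to 0.12. Cyp2c23 was at 12.21, 12.25 and 12.29, and rose by 0.46 ± 0.10 (adjusted p = 0.0304). Its call was lost without Clock mutant replicate 1 (0.45) or 2 (0.40) or without rescue replicate 1 (0.48), 2 (0.46) or 3 (0.44), at adjusted p from 0.0044 to 0.0991. These 4 genes were the members called in both of the first comparisons.

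Cyp2j9 and Cyp2c68 were called in rescue against mutant and not in mutant against wild type. Cyp2j9, a fatty acid hydroxylase described in brain, was at 7.89, 7.99 and 7.77 in wild type, 7.96, 7.60 and 8.01 in the mutants and 8.42, 8.30 and 8.26 in rescue livers, above both other groups. It rose by 0.47 ± 0.12 (adjusted p = 0.0467), and was called in 8 of 18 alternatives with adjusted p from 0.0208 to 0.133. Leaving out any 1 of the 9 arrays ended the call (0.34 to 0.55). Cyp2c68 was at 7.81, 7.70 and 7.91 in wild type, 7.88, 8.21 and 8.20 in the mutants and 7.76, 7.45 and 7.34 in rescue livers. It fell by 0.58 ± 0.13 (adjusted p = 0.0279), and the call was lost without Clock mutant replicate 2 (-0.52) or 3 (-0.53) or rescue replicate 2 (-0.55) or 3 (-0.49), at adjusted p from 0.0102 to 0.109. Its promoter (chr19:39741102-39741251, minus strand) is shown as that of the one member that fell in rescue livers. Capitals mark an AHR element (TNGCGTG, here on the other strand) at 130 to 124 bases before the start, an HNF4A element (CAAAGTCCA) at 77 to 69 bases and the ONECUT core at 11 to 6 bases.
Cyp2c68: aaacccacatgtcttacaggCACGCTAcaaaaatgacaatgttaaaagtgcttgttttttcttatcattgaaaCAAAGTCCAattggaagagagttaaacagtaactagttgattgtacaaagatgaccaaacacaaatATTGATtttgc

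A further 9 members lay near the threshold in rescue against mutant, with adjusted p between 0.05 and 0.1. On the lower side were Cyp2a22 (-0.74), Cyp2c55 (-0.65), Cyp2c38 (-0.61), Cyp2d40 (-0.44), Cyp4f40 (-0.37), Cyp4f15 (-0.36) and Cyp2b10 (-0.36). Cyp2f2 (0.36) and Cyp2r1 (0.35) were on the higher side. Cyp2c55 was at 5.22, 5.70 and 6.12 in rescue livers, a wide spread with each below each mutant. Cyp2r1 was at 8.91, 9.19 and 8.99, each above each mutant. Cyp3a11 was at 11.18, 11.45 and 11.89 in rescue livers, and its difference from the mutants was 0.81 with an interval of 0.19 to 1.44 (adjusted p = 0.13). Cyp3a13 was at 9.55, 9.58 and 9.51, each above each mutant and below each wild-type liver, and its difference from the mutants was 0.23 with an interval of 0.02 to 0.45 (adjusted p = 0.197). Cyp2c37 was at 10.03, 10.07 and 10.09, in the same position, with 0.25 and an interval of -0.03 to 0.53. Cyp2d22, at 10.02, 9.73 and 10.32, and Cyp2d13, at 9.78, 9.12 and 9.80, were spread over the range of both other groups. Cyp4f13 was at 8.13, 8.06 and 8.11, each below each mutant, a difference of -0.29 (adjusted p = 0.105).

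**Figure D3:**
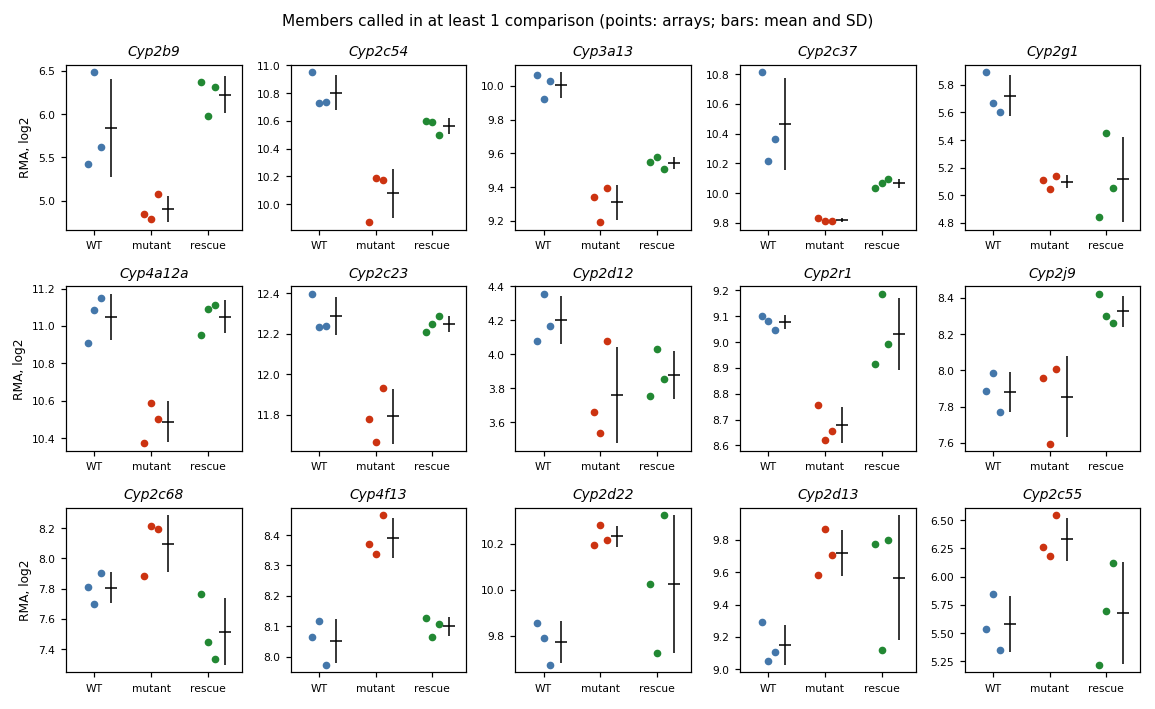
RMA log2 signal (vertical axes, each with its own range) of the 15 P450 genes called in at least 1 comparison, with 1 point per array and a bar for the mean and SD of each group of 3 (WT, wild type; mutant, Clock mutant). The 9 genes called lower in the mutant than in wild type have their lowest group mean in the mutant. In rescue livers Cyp2c54, Cyp2c37 and Cyp3a13 lie between mutant and wild type without overlap. Cyp2g1 in rescue livers overlaps the mutant, and Cyp2j9 is high in rescue livers.

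The third comparison set rescue against wild-type livers. In limma 2 members fell, 2.99% of the 67, against 2.28% of all genes (1.35% lower and 0.928% higher), a share near the background. None rose, and 4 had higher values at an unadjusted p under 0.05. The median difference of the members was 0.029, beside 0.0071 for all genes. Cyp3a13 fell by 0.46 ± 0.10 (adjusted p = 0.0252), with no overlap between its rescue and wild-type values. Cyp2g1, at 4.84, 5.45 and 5.05 in rescue livers, fell by 0.61 ± 0.14 (adjusted p = 0.0346). Both were also the members that were called lower in the mutant and in rescue livers against the same wild-type arrays. Cyp3a13 was not called without rescue replicate 1 (-0.46), 2 (-0.48) or 3 (-0.44) or wild type replicate 1 (-0.43) or 3 (-0.45), at adjusted p from 0.0060 to 0.105 over all alternatives. Cyp2g1 was not called without rescue replicate 1 (-0.47) or 3 (-0.57), without any 1 of the wild-type arrays (-0.67 to -0.52) or with 6 arrays alone (-0.61), at adjusted p from 0.0072 to 0.141. The count was thus 0 without rescue replicate 1, rescue replicate 3, wild type replicate 1 or wild type replicate 3, where 8 to 11 members still had an unadjusted p under 0.05. Cyp2j9 differed by 0.45 (adjusted p = 0.0728). For the members that fell in the mutant and were called higher in rescue livers, the intervals of rescue against wild type were -0.07 to 0.83 for Cyp2b9, -0.26 to 0.18 for Cyp2c23, -0.23 to 0.23 for Cyp4a12a and -0.48 to 0.01 for Cyp2c54.

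Neighbouring relatives that differed in their calls were compared directly, as the log2 ratio of both signals within each array. The pairs were chosen after the values were seen, and 3 arrays against 3 cannot give an exact two-sided permutation p below 0.1. The ratio of Cyp4a12a to Cyp4a12b was lower in the mutant than in wild type by 0.43 and higher in rescue than in mutant livers by 0.46, with no overlap in either (exact permutation p = 0.1 in each). Cyp2c54 to Cyp2c50 was lower by 0.51 and then higher by 0.36, again without overlap (exact permutation p = 0.1 in each). Cyp2c37 to Cyp2c50 was lower by 0.43 (exact permutation p = 0.2) and then higher by 0.12 (exact permutation p = 0.5), with overlap in both. A further pair, Cyp2b9 and Cyp2b10, is given no ratio because Cyp2b10 lay within the olfactory receptor range in all 3 groups and Cyp2b9 in the mutant. After Benjamini-Hochberg adjustment over the 8 tests, that pair included, the smallest value was 0.133. With 3 arrays against 3, none could have passed the threshold, so the tests decide nothing. Both comparisons used the same 3 mutant arrays, so the fall and the rise of a ratio are not independent. A ratio within an array shows unequal change and does not show that either gene stayed the same.

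The members were also read by groups of known regulation, which were assembled from textbook knowledge. Over all genes, 15.4% were called in mutant against wild type, 3.81% in rescue against mutant and 2.28% in rescue against wild type. Whether a group differed from these shares was not tested. Of 8 measured genes that respond to CAR or PXR, 1 rose (Cyp2c55) and 2 fell (Cyp2c37 and Cyp2c54) in the mutant, and the group's median was -0.10. The 3 PPARA-responsive genes, Cyp4a10, Cyp4a14 and Cyp4a31, gave no call in any of the 3 limma comparisons, with medians of -0.19, 0.31 and 0.12 and with 0, 2 and 1 genes at an unadjusted p under 0.05. Likewise the 3 AHR-responsive genes, Cyp1a1, Cyp1a2 and Cyp1b1, gave no call in any of them, with 2, 0 and 0 at an unadjusted p under 0.05. Of 7 genes known from pericentral hepatocytes, Cyp2c37 and Cyp2c54 fell in the mutant, the median was -0.32, and Cyp2c54 rose in rescue livers. Of 8 pericentral markers, which include Cyp2e1 (-0.08), Oat (0.64), Gulo (0.55) and Axin2 (0.42) rose in the mutant and 5 did not pass the test, with a median of 0.10, and 3 were lower in rescue livers than in the mutant. Their summed level was 13.82 to 13.94 in wild type, 13.96 to 14.10 in the mutant and 13.62 to 13.85 in rescue livers. Of 5 measured periportal markers, which include Cyp2f2, 1 rose and 1 fell in the mutant, with a median of -0.17. The fall was in Cdh1 (-0.36), which was called higher in rescue than in mutant livers (1.01) and wild-type livers (0.65). The summed level of these 5 was 13.62 to 13.86 in wild type, 13.69 to 13.72 in the mutant and 13.70 to 13.88 in rescue livers. The part of either marker list in the P450 results was not tested.

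Among genes with a known sex difference, 1 of each kind was called in the first comparison, in which 15.4% of all genes were called. Of 5 measured female-predominant genes (Cyp2a22, Cyp2b9, Cyp2b13, Cyp3a16 and Cyp3a44), Cyp2b9 fell in the mutant and rose in rescue livers, and the medians were -0.0055 and 0.27. Cyp3a44 was at 6.21, 5.52 and 6.40 in wild type, 6.42, 5.35 and 5.67 in the mutants and 7.08, 6.21 and 6.15 in rescue livers, which overlap, and did not pass the test. Of 4 male-predominant genes (Cyp2d9, Cyp2u1, Cyp4a12a and Cyp4a12b), Cyp4a12a likewise fell and then rose, and the medians were -0.036 and 0.098. The Y-linked genes Eif2s3y, Kdm5d and Uty lay between 6.89 and 8.82 on each array, and Xist lay between 4.08 and 5.25, within the olfactory receptor range. By these genes each of the 9 livers read as male. Uty (-0.57, adjusted p = 0.0170) and Kdm5d (-0.36, adjusted p = 0.0402) were lower in the mutant than in wild type, and Xist was higher in rescue than in wild-type livers (0.77, adjusted p = 0.0076). The part of these differences in the sex-biased P450 results was not tested. Of 8 genes known mainly from other tissues, of which Cyp2ab1 is not among the 67 members, 7 lay within the olfactory receptor range in each group, and Cyp2g1 was the only one called in any of the 3 comparisons. The exception in level was Cyp4b1, at 7.20 ± 0.17 in wild type.

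Windows of 250 bases before a start were found in RefSeq (GRCm38.p6) for 53 of the 67 members and for 8 of the 15 called in any comparison. Cyp2c23, Cyp2c54, Cyp2d12, Cyp2d13, Cyp2d22, Cyp2g1 and Cyp4a12a had none in the table used. Each motif was searched on both strands in any window of a gene, and its share over 27025 genes with such windows is given beside it. The E-box CACGTG, the site of CLOCK and its partner, was in 1 of 53 windows (Cyp2j6), against 6.86% of genes. The D-box of PAR bZIP factors, searched as TTATGTAA or TTACGTAA, was in 0 of 53, against 1.10%, and the ROR and REV-ERB element TAGGTCA in 1 (Cyp3a11), against 2.55%. The ONECUT core ATTGAT was in 10 of 53, or 18.9%, against 7.72%. Among the 10 were Cyp2c37, Cyp2c50, Cyp2c67 and Cyp2c68 of the Cyp2c cluster and Cyp3a16, Cyp3a44 and Cyp3a57 of the Cyp3a cluster, which share sequence by descent. The HNF4A element CAAAGTCCA was in 6, or 11.3%, against 0.451%, in Cyp2c65, Cyp2c67, Cyp2c68, Cyp2c70, Cyp3a11 and Cyp3a16. All of these belong to the same Cyp2c and Cyp3a clusters, so they are not independent matches. Of the 8 called members with a window, 2 had the ONECUT core and 1 the HNF4A element. The nuclear receptor core AGGTCA, which is contained in TAGGTCA, was in 14 (26.4%, against 15.8%), the AHR element TNGCGTG in 1 (Cyp2c68, against 4.76%), and the TATA box in 21 (39.6%, against 14.3%). A match describes letters in this window and not a site in use.

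Every P450 needs heme, and 11 measured genes of its synthesis and breakdown were read, of which 2 rose and 2 fell in the mutant. Over all genes 6.37% rose and 9.02% fell. Hmox1, Hmox2, Blvra and Blvrb belong to breakdown, and transcript levels do not measure the supply of heme. Alas1, the rate-limiting enzyme of heme synthesis, was at 7.63, 7.99 and 7.90 in wild type, 7.23, 6.76 and 6.79 in the mutants and 8.42, 8.44 and 8.79 in rescue livers, in 3 separate ranges. It fell by 0.91 ± 0.15 in the mutant (adjusted p = 0.0011) and rose by 1.62 ± 0.15 in rescue against mutant livers (adjusted p = 1.4e-04). In rescue livers it was above wild type by 0.71 ± 0.15 (adjusted p = 0.0207), a call that was lost without rescue replicate 3 (0.58), wild type replicate 1 (0.60) or wild type replicate 3 (0.73), at adjusted p from 0.0065 to 0.107. The next enzyme of the path, Alad, rose in the mutant by 1.01 ± 0.15 (adjusted p = 6.3e-04), as did Ppox, a late enzyme, by 0.63 ± 0.11 (adjusted p = 0.0017). Fech, which inserts the iron, fell by 0.52 ± 0.13 (adjusted p = 0.0148), and was not called without Clock mutant replicate 1 (-0.50) or wild type replicate 1 (-0.44), at adjusted p from 0.0046 to 0.0641. The other 7 genes did not pass the test in this comparison. The median over the 11, synthesis and breakdown genes together, was 0.20. The reductase Por was not analysed here. Of 7 electron transfer partners, 2 rose in the mutant, against 6.37% of all genes. These were Cyb5r3, the cytochrome b5 reductase (0.70 ± 0.16, adjusted p = 0.0085), and Pgrmc2, a heme-binding membrane protein (0.40 ± 0.12, adjusted p = 0.0305). Pgrmc2 was not called in 6 of 18 alternatives, among them without Clock mutant replicate 1 (0.32) or 3 (0.41) and without wild type replicate 1 (0.33) or 3 (0.43), at adjusted p from 0.0088 to 0.12. Fdx1, the mitochondrial ferredoxin, was lower in rescue than in wild-type livers by 0.48 ± 0.10 (adjusted p = 0.0190), and was not called without rescue replicate 2 (-0.45) or 3 (-0.49) or wild type replicate 1 (-0.46) or 3 (-0.48), at adjusted p from 0.0044 to 0.0801.

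Of 25 measured receptors and regulators of P450 genes, 3 fell in the mutant, against 9.02% of all genes. No call was made in rescue against mutant or in rescue against wild type, where limma gave 4 and 4 genes an unadjusted p under 0.05. Onecut1, the hepatocyte factor HNF6, was at 9.16, 9.28 and 9.96 in wild type, 7.45, 7.81 and 7.77 in the mutants and 7.57, 9.54 and 9.37 in rescue livers. It fell by 1.79 ± 0.37 (adjusted p = 0.0052), and rescue replicate 1 alone stood with the mutants. The call was lost under the trended, robust prior (adjusted p = 0.0777, 5.7e-05 to 0.0777 over all alternatives). Nr3c1, the glucocorticoid receptor, fell by 0.63 ± 0.12 (adjusted p = 0.0024), and Ppargc1a, a coactivator of nuclear receptors, by 0.38 ± 0.11 (adjusted p = 0.0272). The call of Ppargc1a was lost when quantile normalization was repeated (-0.27) and without Clock mutant replicate 1 (-0.38) or 3 (-0.33) or wild type replicate 3 (-0.32), at adjusted p from 0.0120 to 0.111. The AHR, CAR, PXR and PPARA genes were not among those called. The PAR bZIP factors Dbp, Tef and Hlf fell in the mutant by 1.09 ± 0.14, 0.74 ± 0.12 and 0.71 ± 0.10, and Nfil3 (E4BP4), which represses through the same D-box, rose 2.84-fold (SE 0.12 on the log2 scale, adjusted p = 4.3e-06). In rescue livers all 4 stayed on the same side of wild type, at -0.97, -0.92, -0.60 and 0.89, each called. Against the mutants Nfil3 fell by 0.62 ± 0.12 (adjusted p = 0.0138), which was lost without Clock mutant replicate 1 (-0.56) or rescue replicate 2 (-0.59) or 3 (-0.54), at adjusted p from 0.0036 to 0.063. Tef, Hlf and Dbp did not pass that test.

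Growth hormone signalling sets much of the sex difference of P450 genes, and of 11 genes listed for it 2 rose and 3 fell in the mutant. Over all genes 6.37% rose and 9.02% fell, and whether the list differed from these shares was not tested. Bcl6, a repressor that competes with STAT5 at its sites, was at 7.06, 7.94 and 7.71 in wild type, 8.61, 8.77 and 8.82 in the mutants and 8.48, 8.67 and 8.74 in rescue livers. It rose by 1.16 ± 0.17 in the mutant (adjusted p = 6.3e-04) and was higher by 1.06 ± 0.17 in rescue against wild-type livers (adjusted p = 0.0044). Stat5a rose by 0.44 ± 0.11 (adjusted p = 0.0158), a call that was lost without Clock mutant replicate 2 (0.39) or wild type replicate 3 (0.39), at adjusted p from 0.0075 to 0.0687. Tox and Trim24, which are known as sex-biased in mouse liver, fell by 0.61 ± 0.13 and 0.61 ± 0.12, and were lower in rescue than in wild-type livers by 0.80 and 0.62 as well. The latter call of Trim24 was lost without rescue replicate 2 (-0.60) or 3 (-0.59) or wild type replicate 1 (-0.57) or 3 (-0.61), at adjusted p from 0.0052 to 0.0782. Jak2, the kinase of the growth hormone receptor, fell by 0.58 ± 0.09 (adjusted p = 0.0010) and rose in rescue against mutant livers by 0.38 ± 0.09 (adjusted p = 0.0395). The rise was called in 8 of 18 alternatives and was lost without any 1 of the mutant or rescue arrays (0.35 to 0.40) and without wild type replicate 1 or 2 (0.38 in both), at adjusted p from 0.0172 to 0.11.

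**Figure D4:**
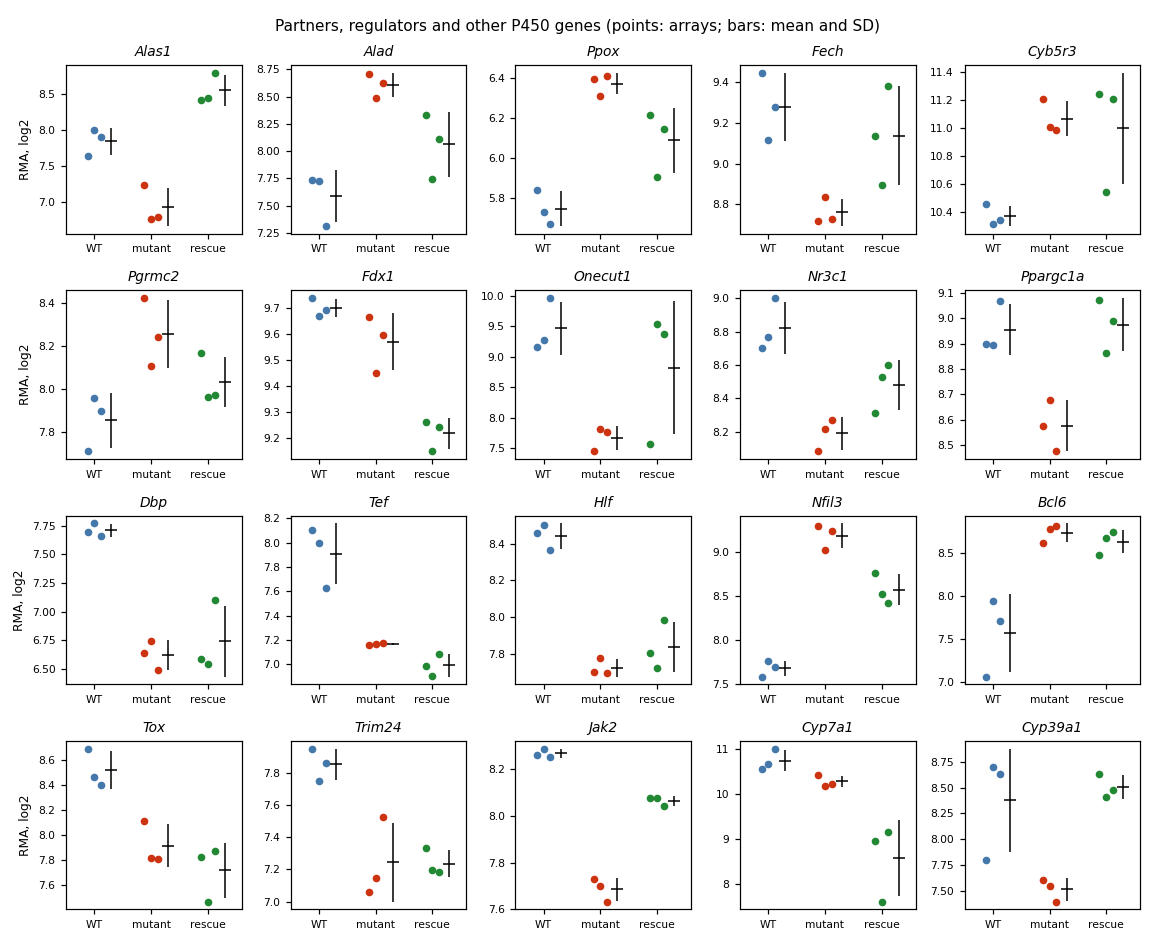
RMA log2 signal (vertical axes, each with its own range) of 20 genes of heme synthesis, electron transfer, transcription and P450 families beyond 4, with 1 point per array and a bar for the mean and SD of each group of 3. Alas1 lies lowest in the mutant and highest in rescue livers, Dbp, Tef, Hlf, Tox, Trim24 and Bcl6 lie on the same side of wild type in mutant and rescue livers, and Cyp7a1 is lowest in rescue livers.

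For comparison, 19 P450 genes outside families 1 to 4, which mostly act on sterols, steroids, retinoids and vitamin D, gave 3 rises and 2 falls in mutant against wild-type livers. Over all genes 6.37% rose and 9.02% fell. Cyp39a1, an oxysterol hydroxylase, was at 7.80, 8.70 and 8.64 in wild type, 7.60, 7.54 and 7.39 in the mutants and 8.63, 8.41 and 8.48 in rescue livers. It fell by 0.87 ± 0.18 (adjusted p = 0.0058) and rose 1.99-fold (SE 0.18 on the log2 scale, adjusted p = 0.0125) in rescue against mutant livers. Cyp20a1, an enzyme without a known substrate, fell by 0.61 ± 0.15 and rose by 0.62 ± 0.15 (adjusted p = 0.0130 and 0.0354). Its fall was lost without Clock mutant replicate 2 (-0.54) or wild type replicate 1 (-0.51) or 3 (-0.51), at adjusted p from 0.0012 to 0.0679, and its rise without any 1 of the mutant and rescue arrays (0.55 to 0.68), at adjusted p from 0.0120 to 0.106. Cyp8b1, the sterol 12-alpha-hydroxylase of bile acid synthesis, rose by 0.51 ± 0.12 (adjusted p = 0.0105), which was lost without wild type replicate 1 (0.41), at adjusted p from 0.0025 to 0.0517. The rises of Cyp46a1 (0.36, adjusted p = 0.0419) and Cyp21a1 (0.38, adjusted p = 0.0476) were called in 11 of 18 and 4 of 17 alternatives, at adjusted p from 0.0219 to 0.151 and from 0.0178 to 0.173, and each was lost when any of several single arrays was left out. Cyp7a1, the rate-limiting enzyme of bile acid synthesis, was at 10.55, 10.67 and 11.00 in wild type, 10.42, 10.18 and 10.22 in the mutants and 8.95, 7.61 and 9.15 in rescue livers, below both other groups. It fell in rescue livers by 1.71 ± 0.28 against the mutants (adjusted p = 0.0082) and stood at -2.17 ± 0.28 against wild type (adjusted p = 9.2e-04). The former was lost under the trended, robust prior (adjusted p = 0.0662, 0.0019 to 0.0662 over all alternatives).

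Deviation of an array from the gene means was also related to the span of the gene, the distance from its start to its end. Across 19855 genes, Spearman's rho between span and deviation was -0.21 to -0.16 on the mutant arrays, -0.03 to 0.11 on the rescue arrays and 0.11 to 0.18 on the wild-type arrays, as a description with genes that are not independent. The median span of the members was 21204 bases, beside 17737 bases for all genes. With the trend on span removed from each array, 2 members rose and 11 fell in mutant against wild type, where Cyp2d13 and Cyp2d22 were lost and Cyp1a2 and Cyp1b1 were gained. Cyp2b9, Cyp2c23, Cyp2c37, Cyp2c54, Cyp2g1, Cyp3a13 and Cyp4a12a were called lower in the mutant with the trend removed and in every other alternative in which they were tested.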

How the data were processed

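Liver RNA from 9 mice was labelled with biotin and hybridised to Affymetrix gene arrays, 1 array per sample, per the labels. Per the submitters' processing notes the authors ran RMA in Affymetrix Expression Console (version not given in the sources used here), and what they deposited is 1 log2 signal per probe set and array. RMA gives the probe intensities of all arrays 1 distribution before they are summarised per probe set, and compresses differences of dim probe sets. The arrays still differed in the median of the genes used here. Median centring moved the median difference of all genes in mutant against wild type from 0.073 to -0.0044. That the base is 2 was taken from the range, whose maximum is 13.86. The platform annotation gave 1 symbol for 21789 of 35556 probe sets, several for 1621 and none for 12146. For 999 genes the brightest of several probe sets was kept. The arrays record no read depth.

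All 9 arrays were fitted in 1 model by limma (3.58.1, under R 4.3.3, with statmod 1.5.0). The fit had 6 residual and 8.47 prior degrees of freedom. Tables and plots were made under Python 3.11.15 using matplotlib 3.10.9. Benjamini-Hochberg adjustment ran over 19938 genes within each comparison, and a gene was called at adjusted p under 0.05. The script was tested on simulated data in which 200 of 19938 genes were changed. The simulated noise was normal, with the spread that limma had estimated for each gene. In the real data 3068 genes were called in mutant against wild type, so recovery there may differ. Changes of 0.5 were recovered in 42%, 45% and 55% of cases in the 3 comparisons, and changes of 1 in 100%. False calls were 6 of 148, 9 of 154 and 15 of 170. A gene that was not called may therefore still have changed. Intervals are 95% intervals of the model. Gene order, span and promoters came from RefSeq (GRCm38.p6), to which 21698 of the probe sets with 1 symbol were matched.

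Named were all members called in any comparison, the 10 of highest wild-type mean, the members of the groups of known regulation, those with adjusted p from 0.05 to 0.1, and the called genes of the other lists. The members and lists were chosen with earlier results of these data known. Pairing by replicate number was checked through the correlation of same-numbered arrays' deviations from their group means, which ran from -0.11 to 0.19, so the numbers were not taken to pair the samples.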

Additional observations from a re-analysis of the deposited data

How the results depend on the processing

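The 36 results on single P450 genes were recomputed in 18 alternatives, 9 of which leave out 1 array each. Of the 640 values, 524 kept their direction and their side of the threshold, 73 lost the call, 43 gained one, and 0 turned direction. Cyp2b9, Cyp2d12, Cyp2g1, Cyp2j12, Cyp2b10 and Cyp4f40 were not tested without the dimmest 40% of genes, which removed them. In mutant against wild type, leaving out 1 array at a time gave 8 to 14 called members and 1695 to 3130 called genes, and median centring moved the members' median difference to -0.081. In rescue against mutant, 11 members were called without the dimmest 40% of genes and 11 with a trended and robust prior, and 1 to 5 with 1 array left out. The count of all genes in that comparison was 1178 without the dimmest genes, 1210 with the trended prior, 1334 with array weights and 200 to 692 with 1 array left out. The members' median difference there was 0.075 without the dimmest genes, 0.078 with median centring, 0.073 with the span trend removed and -0.039 to 0.046 with 1 array left out. In rescue against wild type, 1 member was called with the 6 arrays alone and 0 to 3 with 1 array left out, and all genes gave 711 without the dimmest genes, 704 with the trended prior and 233 to 501 with 1 array left out. Fewer samples or genes enter by construction where arrays or dim genes were left out; for the other settings the cause was not tested. Differences that end within the olfactory receptor range rest on signals near the background of the array.

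With the replicate number as a block, 14, 8 and 3 members and 3368, 931 and 507 genes were called in the 3 comparisons, with Cyp3a11 gained in mutant against wild type, Cyp2c38 and Cyp3a11 in rescue against mutant, and Cyp2c38 in rescue against wild type.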
